A study of Homo sapiens with 6 samples.

Results

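The genes that encode the proteins of the cytosolic ribosome were examined in cells of the third pharyngeal pouch endoderm (3PPE) that had received siRNA against HOXA3 or control siRNA. The members were the rows of the deposited count matrix whose Ensembl identifiers GENCODE 29 annotates as protein-coding with an RPL or RPS symbol followed by a digit, together with RPLP0, RPLP1, RPLP2 and RPSA. The RPS6 kinase genes, RPS19BP1 and RPS10-NUDT3 were left out. The rule used no measured value and gave 89 of the 58735 rows, of which 46 encode proteins of the large subunit, 31 encode proteins of the small subunit, 8 are paralogs of these genes, 2 are readthrough genes that join a member to its neighbour, and 2 lie on the Y chromosome and are counted without values. The cells came from H9 (WA09), an established human embryonic stem cell line, which was cultured on mouse embryonic fibroblasts. They were turned into definitive endoderm with Activin A and WNT3A. They were then kept in retinoic acid, BMP4, the TGF-beta inhibitor SB431542 and a Wnt inhibitor, which the study gives as IWP2 or IWR1. All 6 samples carried the wild-type genotype and the same differentiation. On day 7 they were transfected with a lipid reagent with negative control siRNA (siControl, 3 samples) or with HOXA3 siRNA (siHOXA3, 3 samples). Hours later opti-MEM took the place of the differentiation medium, and RNA was taken from the mixed culture on day 9. The study calls its repeats with this siRNA independent and biological, but the labels do not say whether each sample was a differentiation of its own, so the p-values measure only the spread between these samples.

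The ribosome joins a large and a small subunit, and each protein of a subunit is present once, apart from the acidic stalk proteins RPLP1 and RPLP2, which sit in several copies on RPLP0. Cells therefore make the proteins in matched amounts, and most of their mRNAs begin with a run of pyrimidines, the terminal oligopyrimidine (TOP) tract, through which mTOR and LARP1 control their translation. Proliferating stem and progenitor cells devote a large part of their mRNA to these genes. A few members have added roles. RPL5 and RPL11 bind MDM2 together with the 5S rRNA when ribosome assembly fails, which stabilizes p53, RPS6 is phosphorylated by the S6 kinases, loss of a copy of RPS19 is a cause of Diamond-Blackfan anaemia, and RPSA is also known as the laminin receptor.

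The matrix held 14117150 to 15282307 counts per sample, and all identifiers were found in GENCODE 29. HOXA3 itself had 248, 240 and 236 counts in siControl and 159, 199 and 220 in siHOXA3, a log2 fold change of -0.27 ± 0.16 (SE) that did not pass the test (edgeR quasi-likelihood test, adjusted p = 0.828). Every siHOXA3 sample lay below every siControl sample in counts, but replicate 3 of siHOXA3 had 15.5 CPM (counts scaled to library size), within the siControl range of 15.5 to 16.6. Of 10 pouch endoderm markers, 6 were below 1 CPM in every library, while EPCAM had 254 to 269 CPM in siControl. The pouch endoderm markers summed to 311 to 323 CPM in siControl and 314 to 440 CPM in siHOXA3, with 440 CPM in replicate 2. Pluripotency markers summed to 1408 to 1467 CPM and 1466 to 1584 CPM, also highest in replicate 2 of siHOXA3, and neural markers to 73.4 to 89.2 CPM and 84.8 to 103 CPM. Markers of mesenchyme summed to 3517 to 3758 CPM in siControl and 3898 to 4243 CPM in siHOXA3, and markers of amnion and trophoblast to 2093 to 2202 CPM and 2212 to 2393 CPM. The part of these other cell types in the results below was not tested, and in bulk RNA fewer cells of a type and less RNA per cell cannot be told apart. Replicate 2 of siHOXA3 stands apart from the other 5 libraries for the members, so values without it are given beside the main ones.

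The start sites of the members show what they share in sequence. RefSeq windows (GRCh38.p14) of 250 bases before to 50 bases after the start matched 70 of the 87 members with values. A stretch of at least 8 C or T that touched the 10 bases on either side of the start was found in 53 of the 70 (75.7%), against 15.2% of 35116 promoters in the table. The 2 readthrough genes have the same window as RPL17 and RPL36A, and with each window counted once the stretch was found in 51 of 68. At least one of the short strings CTTTC, its variant CTTTT, and a further form spelled CTCTT, read on the gene's strand within the same bases around the start, was found in 41 members (58.6%) against 7.71% of all promoters, and they overlap the C and T stretch by their letters. The ETS-type string CCGGAAG, searched on both strands of the whole window, was found in 23 members (32.9%) against 10.3%, and the YY1-type string ATGGCGG in 12 (17.1%) against 5.55%. The E-box CACGTG was present in 4 members (5.71%) against 7.26%, and the homeodomain-type string TAATTA in 0 of 70 against 4.84%. The sequences below run from 40 bases before to 10 bases after the start, 5′ to 3′ on the gene's strand, with a C and T stretch of at least 8 in capitals. They are the members with the highest fold changes, 2 abundant members for comparison, and RPL11 and RPS27A, which lack such a stretch at the RefSeq start.
RPL41, chr12:56116593-56116642, plus strand: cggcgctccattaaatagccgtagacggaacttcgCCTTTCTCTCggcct
RPL28, chr19:55385892-55385941, plus strand: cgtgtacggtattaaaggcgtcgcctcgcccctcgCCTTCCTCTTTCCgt
RPL36AL, chr14:49620617-49620666, minus strand: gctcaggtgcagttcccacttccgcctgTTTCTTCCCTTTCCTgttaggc
RPL26, chr17:8383184-8383233, minus strand: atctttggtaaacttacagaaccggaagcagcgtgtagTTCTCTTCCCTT
RPL26L1, chr5:172958689-172958738, plus strand: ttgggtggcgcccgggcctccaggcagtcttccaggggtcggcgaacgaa
RPL36, chr19:5690255-5690304, plus strand: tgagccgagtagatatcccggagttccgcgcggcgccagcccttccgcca
RPLP0, chr12:120201102-120201151, minus strand: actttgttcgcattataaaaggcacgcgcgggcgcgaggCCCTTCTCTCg
RPS6, chr9:19380227-19380276, minus strand: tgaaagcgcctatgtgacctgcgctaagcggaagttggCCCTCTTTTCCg
RPL11, chr1:23691739-23691788, plus strand: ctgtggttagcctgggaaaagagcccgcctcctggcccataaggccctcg
RPS27A, chr2:55231863-55231912, plus strand: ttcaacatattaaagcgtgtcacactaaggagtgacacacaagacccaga
The stretch of RPL26 is 14 bases long and runs past the printed window. The 2 paralogs of the same pair differ here, since RPL26 has the stretch and RPL26L1 does not.

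The members covered a wide range of levels. Per kb of transcript, the 8 highest in siControl were RPLP0 with 2035 CPM per kb, RPS19 with 1951, RPLP1 with 1901, RPS2 with 1575, RPL3 with 1328, RPL15 with 1255, RPL7A with 1255 and RPL13A with 1238. RPLP0 and RPLP1 form the stalk of the large subunit, and RPS2 lines the mRNA entry channel of the small subunit. The first 3 of these differed by less than their spread between the siControl libraries, and so did RPL15, RPL7A and RPL13A. The lowest tested member was RPS10 with 4.86 CPM per kb, a core small-subunit gene, although its counts of 35 to 73 per library share 85.5% of their 50-base stretches with other genes and its exons overlap RPS10-NUDT3. RPL36A, RPL17 and RPL26 also lay near the bottom, at 14.3, 22.8 and 31.8 CPM per kb, and 44.4% to 73.9% of their 50-base stretches occur in another gene. Levels of such genes are uncertain because the sources do not say how the authors counted reads with several positions. A further 4 members had too few counts to be tested. RPL10L, a testis paralog, had 0 counts in every library, which allows up to 0.211 CPM in the shallowest library, RPL3L, a paralog of striated muscle, had 0 to 8 counts, and the readthrough genes RPL17-C18orf32 and RPL36A-HNRNPH2 had 0 to 4 and 0 to 1 counts.

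**Figure D1:**
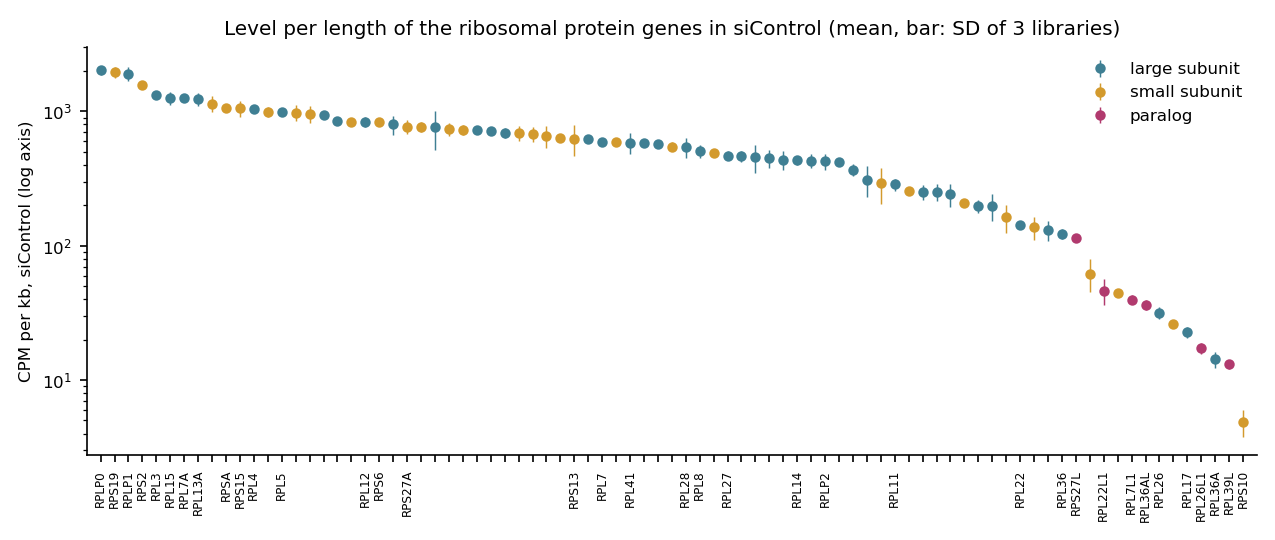
Level per length (CPM per kb of 1 transcript, log axis) of the 83 tested ribosomal protein genes in siControl, ordered by level, as the mean with the SD of the 3 libraries, coloured by subunit or paralog. The core genes run from RPLP0 at 2035 to RPS10 at 4.86 CPM per kb, and the paralogs lie at the low end. Names are given for the genes described in the text.

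The first question was whether the cells spent a different part of their mRNA on ribosomal proteins after HOXA3 siRNA. The 87 members took 3.78%, 3.70% and 4.15% of all counts in siControl and 4.14%, 5.46% and 3.59% in siHOXA3. The highest value was replicate 2 of siHOXA3 and the lowest was replicate 3 of the same group, so that the siHOXA3 samples lay on both sides of the siControl samples. The means were 3.87% ± 0.242 (SD, n = 3) and 4.40% ± 0.964 (SD, n = 3), a difference of 0.522 percentage points that was smaller than the spread (exact permutation test, two-sided, p = 0.7, where 3 against 3 samples cannot go below 0.1). Without replicate 2 the siHOXA3 mean was 3.86% and the difference was -0.011 percentage points (exact permutation test, p = 0.8, smallest possible 0.2). Without replicate 3 of the same group it was 0.927 percentage points (exact permutation test, p = 0.4). The large-subunit genes took 2.33% ± 0.117 of counts in siControl and 2.66% ± 0.542 in siHOXA3, and the small-subunit genes 1.51% ± 0.125 and 1.70% ± 0.418 (SD, n = 3 in each). Both subunits were highest in replicate 2 of siHOXA3, at 3.26% and 2.16%, and without it the siHOXA3 means were 2.37% and 1.47%.

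**Figure D2:**
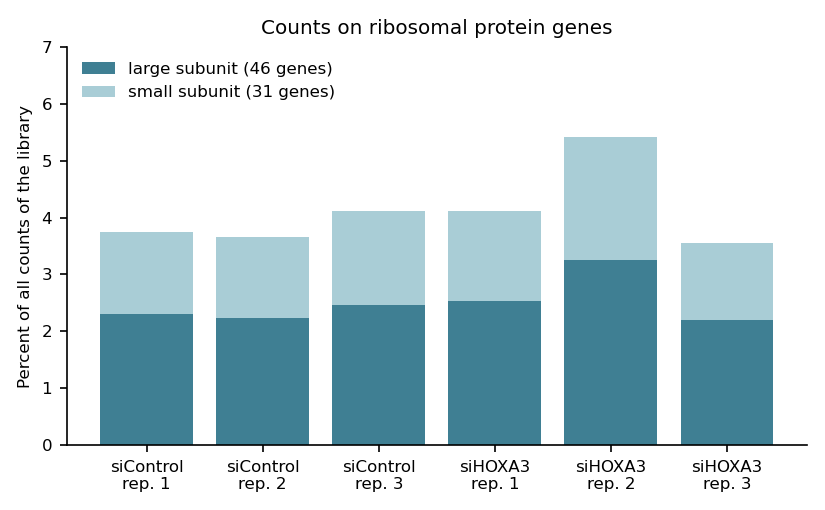
Percent of all counts of each library on the 46 large-subunit and 31 small-subunit genes, stacked, for the 3 siControl and 3 siHOXA3 libraries. Replicate 2 of siHOXA3 is the tallest bar, with 3.26% and 2.16%, and the other 2 siHOXA3 bars lie among or next to the siControl bars.

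The high level in replicate 2 ran through nearly the whole set. For each gene the deviation from its own siControl mean was taken on the scale of log2(CPM + 0.5), and the median over the 83 tested members was -0.04, -0.06 and 0.10 in the siControl libraries and 0.18, 0.55 and -0.11 in siHOXA3 replicates 1, 2 and 3. Thus 82 of 83 members lay above their siControl mean in replicate 2, 60 in replicate 1 and 23 in replicate 3. Of all 16561 tested genes, 8390 did so in replicate 2, 8537 in replicate 1 and 8427 in replicate 3. Of the 1532 other protein-coding genes with a transcript under 1000 bases, 1140 did so in replicate 2. Replicate 2 was the highest of the 6 libraries for 72 of 83 members, where it was the highest for 28.9% of all tested genes. Replicate 1 of siHOXA3 was the highest for another 9 members and replicate 3 of siControl for the other 2. In replicate 1 the members differed most among themselves, with quartiles at -0.02 and 0.41.

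Several other measures moved in the same library. The 1532 other protein-coding genes with a transcript under 1000 bases had a median deviation of 0.27 in siHOXA3 replicate 2, against -0.01 to 0.03 in the siControl libraries, while the 11813 other protein-coding genes of 1000 bases or more had -0.02. Over all 16561 tested genes the median was 0.006, but the quartiles were wider in that library, at -0.27 and 0.26, than in siControl replicate 1, at -0.09 and 0.11. EEF1A1, the elongation factor that carries aminoacyl-tRNA and whose mRNA also has a TOP tract, took 1.29% of counts in replicate 2 and 0.890% to 0.959% in the other 5 libraries. The 1144 annotated ribosomal protein pseudogenes took 0.241% in replicate 2 and 0.164% to 0.201% elsewhere. Transcripts of the mitochondrial genome did not stand out there, at 5.35% against 4.51% to 5.57% elsewhere. Within the set, the median deviation in replicate 2 was 0.60 for the 25 shortest core members (359 to 615 bases) and 0.54 for the 25 longest (835 to 1864 bases). The part of library quality, transcript length or cell composition in this library was not tested, and with 1 such library it cannot be told apart from a response to the siRNA.

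**Figure D3:**
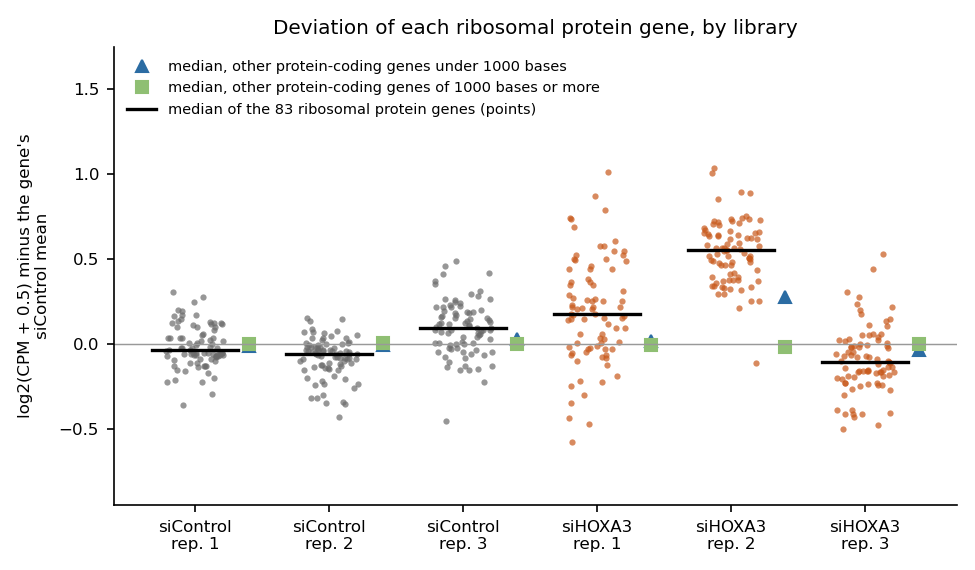
Deviation of each of the 83 tested ribosomal protein genes (points) from its own siControl mean in log2(CPM + 0.5), by library, with the median of the members as a bar and the medians of other protein-coding genes under 1000 bases (triangles) and of 1000 bases or more (squares). In siHOXA3 replicate 2 nearly all points lie above 0 with a median of 0.55, against 0.27 for other short genes, while the median of siHOXA3 replicate 3 is -0.11.

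Tested gene by gene over all 6 libraries, no member passed an adjusted p of 0.05 (0 of 83 by edgeR's quasi-likelihood test with Benjamini-Hochberg adjustment over all 16561 tested genes), against 0.00604% of all tested genes. An unadjusted p under 0.05 was reached by 18 members, all higher in siHOXA3, where 3.79% of all tested genes were called in that direction, and by 0 members lower in siHOXA3, where 2.57% were called. Of the 83 members, 79 had a fold change above 0, against 50.4% of all tested genes. The median log2 fold change was 0.22 for the members and 0.00 for all tested genes, and it was 0.24 for the 46 large-subunit genes, 0.18 for the 31 small-subunit genes and 0.14 for the 6 tested paralogs. DESeq2, the tool the study used, gave 2 members at an adjusted p under 0.05, RPL41 and RPL26, against 0.229% of all genes, and 21 members at an unadjusted p under 0.05, all higher in siHOXA3, where 3.42% of all genes were called higher and 2.23% lower. limma-voom with quality weights gave 2 members, RPL8 and RPL26, at an adjusted p under 0.05, against 0.405% of all genes. At an unadjusted p under 0.05 it gave 19 members higher in siHOXA3, against 7.16% of all genes, and 1 lower, RPL17, against 6.22%, and 58 of 83 members had a fold change above 0 in that fit, against 50.6%. Without the filter on low counts, edgeR gave 9 of 86 members at an adjusted p under 0.05, against 0.29% of all genes, and 36 at an unadjusted p under 0.05, all higher in siHOXA3, where 3.49% of all genes were called higher and 1.91% lower. Among the 9 were RPL41, RPL36 and RPL28, with adjusted p-values of 7.0e-07, 9.7e-05 and 0.0015 by edgeR without the filter. RPL36AL, RPL26, RPL8 and RPL11 were also among them, at 0.0031, 0.0075, 0.0091 and 0.016 in the same fit. The count of 18 at an unadjusted p depended on single libraries, being 45 without siHOXA3 replicate 3, 7 without siControl replicate 2, 11 without siControl replicate 3 and 13 without siHOXA3 replicate 2, and the median was 0.39 without siHOXA3 replicate 3. Since the members share the libraries, these counts do not stand for 83 independent observations.

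Without replicate 2 of siHOXA3, the common direction was no longer there. The median log2 fold change of the members was 0.03, with 45 above 0 and 38 below, and the medians of the large and the small subunit were 0.08 and -0.05. No member passed an adjusted p of 0.05 (edgeR, 0 of 83, against 0.14% of all tested genes). An unadjusted p under 0.05 was reached by 9 members higher in siHOXA3, against 5.21% of all genes, and by 4 members lower in siHOXA3, against 5.45%. The members higher in siHOXA3 included RPL26, RPL8, RPL26L1, RPL36AL, RPL28, RPL12, RPL14 and RPL27, and the lower ones were RPS15, RPS27A, RPL4 and RPL22L1. Of these, RPL12, RPL14, RPL27, RPS27A and RPL4 were named after their values had been seen. DESeq2 on the same 5 libraries gave RPL8 as the 1 member with an adjusted p under 0.05, against 0.467% of all genes.

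**Figure D4:**
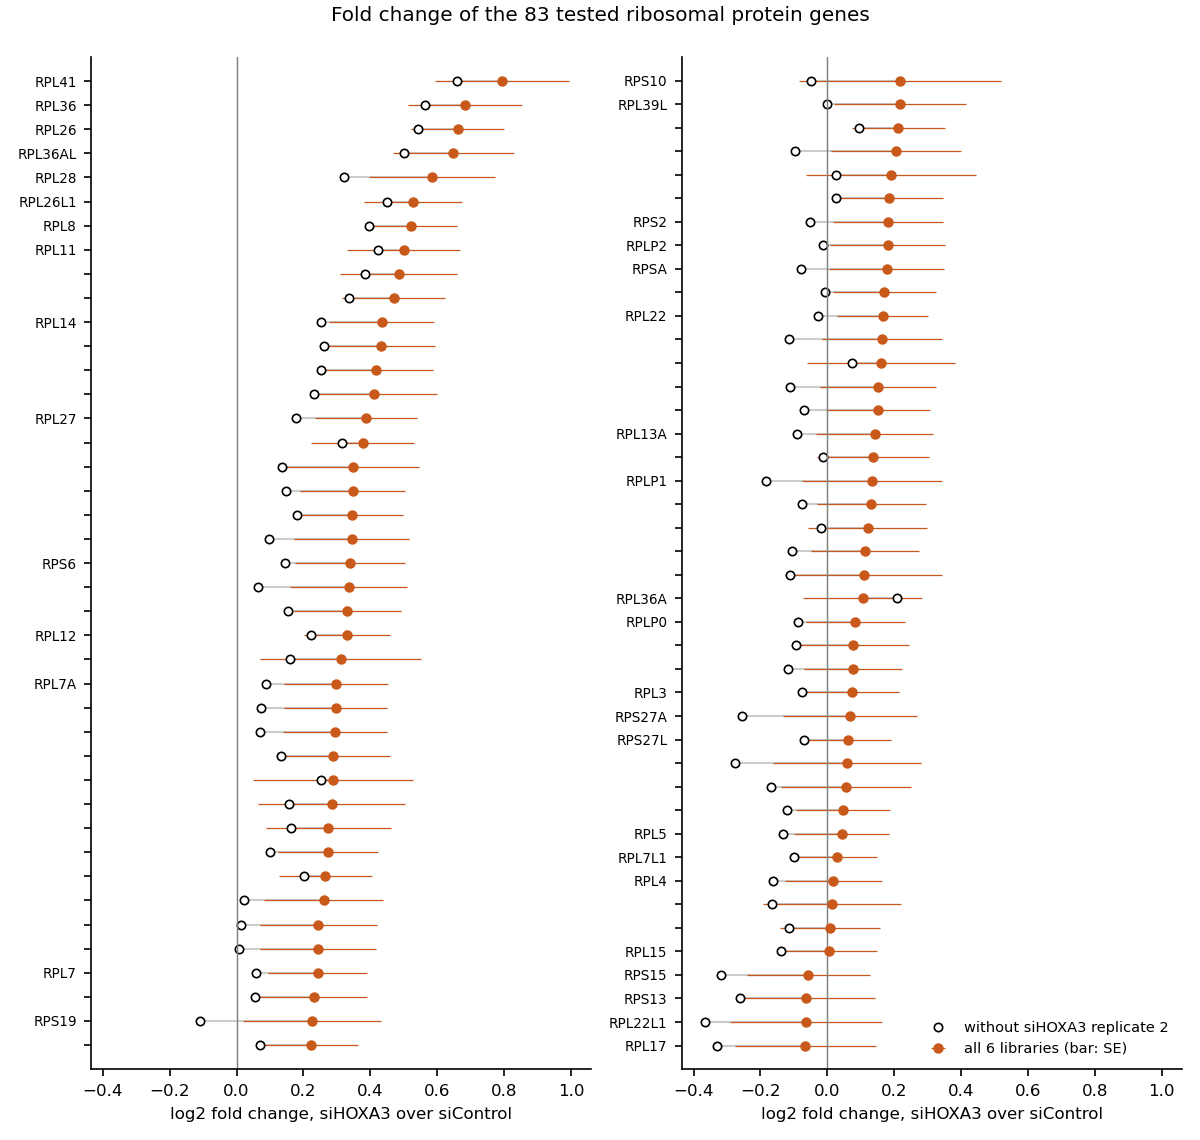
log2 fold change of siHOXA3 over siControl for each of the 83 tested ribosomal protein genes over all 6 libraries (filled, bar: SE) and without siHOXA3 replicate 2 (open), sorted by the first. Over all 6 libraries 79 points lie above 0, and without replicate 2 the median moves from 0.22 to 0.03 with 38 points below 0. Names are given for the genes described in the text.

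A small group of large-subunit genes and their paralogs was higher in every siHOXA3 library than in any siControl library. Over all 6 libraries this held for 6 of 83 members, namely RPL8, RPL26, RPL26L1, RPL28, RPL36 and RPL36AL, and for 6.41% of all tested genes, so that the share of the members (7.23%) was near the background. The opposite order was found for 0 members and for 6.88% of all genes. RPL26, a gene on chromosome 17 (chr17:8377516-8383250, GRCh38) whose protein lies at the exit of the peptide tunnel, had 20.4, 16.8 and 18.6 CPM in siControl and 27.4, 33.9 and 27.0 CPM in siHOXA3. The groups did not overlap, with a log2 fold change of 0.66 ± 0.14 (SE) and an adjusted p of 0.458 by edgeR (unadjusted p = 0.00059). Without replicate 2 the value was 0.54 with an adjusted p of 0.0925. Its exons overlap another annotated gene (AC135178.2, 0 counts in every library) over 14.3% of their length, and 60.8% of its 50-base stretches occur elsewhere.

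RPL8, which belongs to the peptidyl transferase region (chr8:144789765-144792587), shares only 3.603% of its 50-base stretches with other genes. It had 547, 474 and 444 CPM in siControl and 701, 814 and 588 CPM in siHOXA3. All 3 siHOXA3 values were above the highest siControl value, and the log2 fold change was 0.52 ± 0.14 (SE), adjusted p = 0.544 by edgeR. Leaving out replicate 2 gave 0.40 (adjusted p = 0.103, edgeR). RPL28 had 425, 353 and 306 CPM in siControl and 461, 720 and 443 CPM in siHOXA3, a log2 fold change of 0.58 ± 0.19 (adjusted p = 0.666, edgeR). Its separation was narrow, since replicate 3 of siHOXA3 exceeded replicate 1 of siControl by less than the spread of either group, and without replicate 2 the value was 0.32.

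Besides RPL26, the 4 members with the highest fold changes included RPL41, RPL36 and RPL36AL, which were highest in replicates 1 and 2 of siHOXA3. RPL41, which encodes the smallest ribosomal protein (chr12:56116586-56117943), had 329, 249 and 244 CPM in siControl and 548, 557 and 320 CPM in siHOXA3. Replicate 3 of siHOXA3 lay below replicate 1 of siControl, so the groups overlapped, and the log2 fold change was 0.79 ± 0.20 (adjusted p = 0.488, edgeR). By edgeR without the filter on low counts its adjusted p was 7.0e-07. RPL36 had a like order, but without overlap, with 74.3, 62.2 and 68.6 CPM in siControl and 125, 127 and 77.1 CPM in siHOXA3 (log2 fold change 0.68 ± 0.17, adjusted p = 0.486, edgeR). RPL36AL, the autosomal paralog of the X-linked RPL36A, had 29.5, 27.5 and 24.6 CPM against 47.2, 50.7 and 29.9 CPM (0.65 ± 0.18, adjusted p = 0.549, edgeR). In all 3 genes replicates 1 and 2 of siHOXA3 were alike and replicate 3 lay next to the siControl values. Without replicate 2 the log2 fold changes were 0.66 for RPL41, 0.56 for RPL36 and 0.50 for RPL36AL, none past an adjusted p of 0.05.

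**Figure D5:**
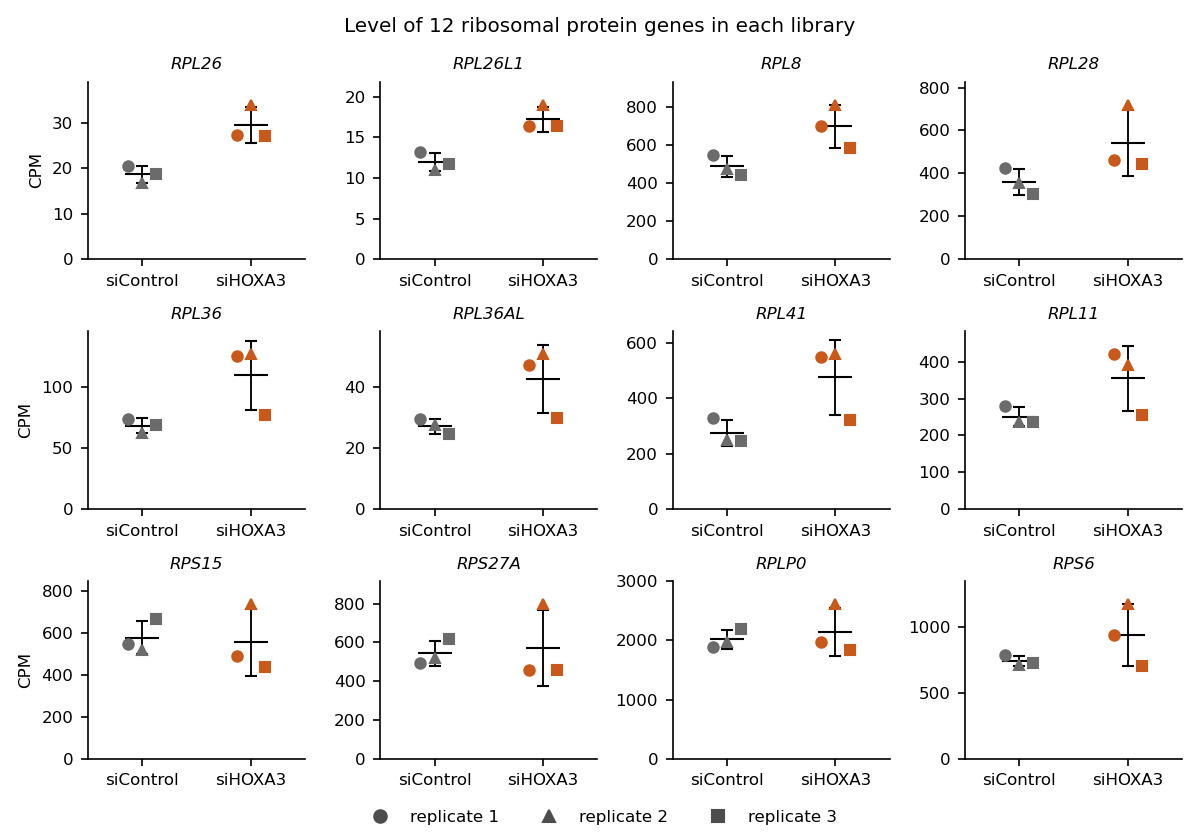
CPM of 12 ribosomal protein genes in each siControl and siHOXA3 library, with the symbol giving the replicate and the mean and SD (n = 3) as a bar. RPL26 and RPL8 lie higher in all 3 siHOXA3 libraries (27.0 to 33.9 against 16.8 to 20.4 CPM for RPL26), RPL36 does so narrowly in replicate 3 (77.1 against at most 74.3 CPM), RPL41 lies higher in replicates 1 and 2, and RPS15 and RPS27A in replicate 2 alone.

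At the other end, 4 members had a fold change below 0 over all 6 libraries, and each of them by no more than its error. These were RPL17 (-0.07 ± 0.21), RPL22L1 (-0.06 ± 0.23), RPS13 (-0.06 ± 0.21) and RPS15 (-0.06 ± 0.18), as log2 fold change and SE. With replicate 2 left out these were -0.33 for RPL17, -0.37 for RPL22L1 and -0.26 for RPS13. RPS15, a protein of the decoding region that is needed for nuclear export of the small subunit, had 547, 520 and 670 CPM in siControl and 493, 739 and 438 CPM in siHOXA3. Replicate 2 was the highest of all 6 libraries and the other 2 siHOXA3 values were below every siControl value. Without replicate 2 its log2 fold change was -0.32 (unadjusted p = 0.0061, adjusted p = 0.279, edgeR). RPS27A, which is made as a fusion with ubiquitin, had the same order, with 495, 519 and 618 CPM in siControl and 456, 797 and 458 CPM in siHOXA3. Without replicate 2, both siHOXA3 libraries lay below every siControl library for 5 members and above for 6, against 13.8% of all genes in each direction.

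The most abundant members differed little between the groups apart from replicate 2. RPLP0, often used as a reference gene, had 1887, 1979 and 2195 CPM in siControl and 1973, 2609 and 1838 CPM in siHOXA3, a log2 fold change of 0.08 ± 0.15 with overlapping groups. RPLP1 had 733, 874 and 930 CPM in siControl and 662, 1291 and 832 CPM in siHOXA3, which is the lowest and the highest value of the 6 in the same group. The log2 fold changes of RPL3, RPL15, RPL13A, RPS2 and RPL7A were 0.07, 0.00, 0.14, 0.18 and 0.30, and their adjusted p-values in edgeR ranged from 0.806 to 0.995. Without replicate 2 they were -0.0762, -0.14, -0.0905, -0.0515 and 0.0878, with RPLP0 at -0.0878 and RPLP1 at -0.18. Of the members with added roles, RPL11 had 281, 235 and 238 CPM in siControl and 420, 392 and 255 CPM in siHOXA3 (log2 fold change 0.50 ± 0.17, adjusted p = 0.71, edgeR). Its partner RPL5 had 956, 1008 and 1070 CPM in siControl and 943, 1276 and 907 CPM in siHOXA3 (0.04 ± 0.14). Thus RPL11 was high in replicates 1 and 2 of siHOXA3, whereas RPL5 was high in replicate 2 alone. RPS6 had 784, 709 and 729 CPM against 939, 1171 and 702 CPM (0.34 ± 0.16, adjusted p = 0.784, edgeR). Without replicate 2 the log2 fold changes of RPL11, RPL5 and RPS6 were 0.42, -0.13 and 0.15, and those of RPS19 and RPSA were -0.11 and -0.0801 in place of 0.23 and 0.18. RPS19 and RPSA reached 1695 and 1635 CPM in replicate 2 and lay between 902 and 1167 CPM in the other 5 libraries.

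The share of a paralog within its pair does not depend on the scaling of libraries, although the transcripts of a pair can differ in length. Of the 8 pairs, 6 had at least 30 counts of the paralog over all libraries. RPL26L1 took 39.3%, 39.5% and 38.5% of the counts of its pair with RPL26 in siControl and 37.4%, 35.9% and 37.7% in siHOXA3. The groups did not overlap, with means of 39.1% ± 0.526 and 37.0% ± 0.960 (SD, n = 3), and p was 0.1, the smallest value that the exact permutation test can give here (0.3 after adjustment over 6 pairs). RPL26L1 itself was also higher in siHOXA3, at 16.4, 19.0 and 16.3 CPM against 13.2, 11.0 and 11.7 CPM, although 51.2% of its 50-base stretches occur in another gene. The genes that share such stretches are 3 for RPL26L1, of which 2 are pseudogenes, and 13 for RPL26, of which 12 are pseudogenes. How much of the sharing lies within the pair was not worked out, so this share is uncertain. RPL7L1, a nucleolar relative of RPL7, took 18.2%, 18.3% and 19.2% of its pair in siControl and 16.2%, 15.6% and 17.96% in siHOXA3, again without overlap (exact permutation p = 0.1, adjusted 0.3). The transcripts used were 3769 bases long for RPL7L1 and 1101 for RPL7, and 66.2% of the 50-base stretches of RPL7 occur in another gene. The part of transcript length in this share was not tested. RPL36AL took 73.3% ± 4.11 of its pair with RPL36A in siControl and 79.3% ± 5.84 in siHOXA3 (exact permutation p = 0.2). RPL22L1, which is known to be repressed by RPL22, took 17.3% ± 3.25 and 15.0% ± 1.46 (exact permutation p = 0.3). RPL39L and RPS27L took 8.89% and 25.5% of their pairs in siControl and 7.88% and 23.4% in siHOXA3, with overlapping groups (exact permutation p = 0.3 and p = 0.7). The difference in share without replicate 2 was -1.55 percentage points for RPL26L1, -1.49 for RPL7L1, 3.23 for RPL36AL, -3.03 for RPL22L1, -1.10 for RPL39L and -2.58 for RPS27L.

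A few genes of the ribosome fall outside the rule because of their symbols. FAU, which encodes a small-subunit protein fused to a ubiquitin-like protein, had 116, 127 and 189 CPM in siControl and 140, 180 and 105 CPM in siHOXA3, with overlap (log2 fold change -0.02 ± 0.21, SE). RACK1, the scaffold protein of the small subunit, had 941, 912 and 811 CPM against 1012, 1228 and 919 CPM (0.25 ± 0.13, adjusted p = 0.813, edgeR). The log2 fold changes of FAU and RACK1 without replicate 2 were -0.24 and 0.12. Over the list of 17 ribosomal and translation genes outside the rule, 16 were tested and 0 passed the adjusted p of 0.05 by edgeR. At an unadjusted p under 0.05, 2 of the 16 were higher, among them EIF3F, against 3.79% of all tested genes. Their median deviation in siHOXA3 replicate 2 was 0.35, and their median log2 fold change was 0.14 with that library and -0.02 without it.

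Lists of genes that build and regulate ribosomes had medians nearer to 0 than the members over all 6 libraries, but without replicate 2 the biogenesis factors lay further from 0 than the members. Of 42 ribosome biogenesis factors, 1 was higher and 1 lower at an unadjusted p under 0.05 by edgeR, against 3.79% and 2.57% of all tested genes. The median log2 fold change of these factors was 0.01, or -0.11 without replicate 2. In the fit without replicate 2, 1 was higher and 7 were lower, against 5.21% and 5.45% of all tested genes. UTP15, part of the processome that handles the small-subunit precursor RNA, had 30.1, 29.5 and 33.3 CPM in siControl and 23.9, 22.5 and 20.9 CPM in siHOXA3, with no overlap (log2 fold change -0.46 ± 0.12, adjusted p = 0.503, edgeR). EIF6, which keeps the subunits apart, had 29.5 to 31.05 CPM in siControl and 34.0 to 43.4 CPM in siHOXA3 (0.32 ± 0.12, adjusted p = 0.725, edgeR). UTP15 and EIF6 had log2 fold changes of -0.47 and 0.20 without replicate 2. Of 15 genes for transcription of the ribosomal RNAs, 0 were called at either threshold by edgeR with all 6 libraries, and the 2 with the smallest p were POLR1B (-0.26 ± 0.12) and POLR1D (0.24 ± 0.11). The fit without replicate 2 gave 1 higher and 1 lower at an unadjusted p under 0.05 (edgeR), against 5.21% and 5.45% of all tested genes. The median of these genes was -0.06 with that library and 0.01 without it. Of 18 TOR and MYC regulators of ribosomal protein mRNAs, 0 were called at either threshold by edgeR with all 6 libraries, with a median of 0.01. Their levels summed to 1506 CPM in siHOXA3 replicate 2, below the siControl range of 1674 to 1736 CPM, while their median deviation there was 0.07. Without replicate 2, 1 of them was lower at an unadjusted p under 0.05 (edgeR), against 5.45% of all tested genes. Of 12 genes of the p53 pathway, 1 had an unadjusted p under 0.05, where 3.79% of all tested genes were called higher. It was GDF15, a secreted stress factor (0.34 ± 0.15, adjusted p = 0.761, edgeR), and the median of the list was -0.003. When replicate 2 was left out, 1 gene of this list was higher and 2 were lower at an unadjusted p under 0.05 (edgeR). The shares of all tested genes were 5.21% and 5.45%, and the median of the list was again -0.003.

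Members with much and with little shared sequence had similar fold changes. Of the tested members, 23 share at least 50% of their 50-base stretches with another annotated gene, mostly pseudogenes, and their median log2 fold change was 0.22. The 21 members with under 10% shared stretches had a median of 0.26. Without replicate 2 the medians were 0.06 and 0.03. The same held for the C and T stretch at the start, with a median of 0.23 for the 51 tested members that have it and 0.19 for the 16 that do not. Their median deviations in siHOXA3 replicate 2 were 0.56 and 0.54.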

How the data were processed

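RNA of 6 cultures was sequenced by the authors as single reads on a NovaSeq instrument. The labels name both the LM-Seq protocol and a SMARTER mRNA kit. The deposited matrix holds raw counts per Ensembl gene. The aligner, counter and annotation are not given in the sources used here, and the submitters' processing notes name only the mouse builds GRCm38 and mm10, although the identifiers are human. Groups were taken from the sample labels.

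From the counts, genes were kept by filterByExpr, scaled by TMM and compared by the robust quasi-likelihood test of edgeR 4.0.16 (two-sided, Benjamini-Hochberg over all tested genes). CPM are the deposited counts scaled to the TMM-adjusted total over tested genes, as edgeR does. limma 3.58.1, DESeq2 1.42.0 and scipy served for alternatives and exact permutation tests. The scripts were tested on simulated data. Length and GC content were those of the median-length basic protein-coding transcript of GENCODE 29. Shared stretches were 50 bases on either strand of any other gene's transcript. The labels do not say whether samples with the same replicate number belong together, and the main test did not pair them. Floors (3 counts in a library) cover counting error only. The SE of a log2 fold change comes from the quasi-likelihood test, which includes the spread between libraries.

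The members and lists were chosen with earlier results of these data known. Named were HOXA3, members passing the adjusted p, the 6 highest and up to 6 lowest fold changes, the 8 highest levels per length, the paralog pairs, RPL5, RPL11, RPS6, RPS19, RPSA, the readthrough genes, FAU, RACK1, the 2 genes of smallest p in each other list, and, without siHOXA3 replicate 2, the 4 members of smallest p. Some genes are not reported here. Alternatives were DESeq2, upper-quartile or library-size scaling, TMM without the members, no filter, CPM above 1 in 3 libraries, limma-voom with quality weights, a length and GC offset, the replicate block, and each library left out.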

Additional observations from a re-analysis of the deposited data

How the results depend on the processing

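With 3 samples a group, 1 library can decide a value. The number of members with an adjusted p under 0.05 was 0 by edgeR and was also 0 with upper-quartile or library-size scaling, TMM without the members, a CPM filter, the length and GC offset and each library left out. It was 2 with DESeq2, 2 with limma-voom and quality weights, 9 with no filter on low counts, and 1 with DESeq2 without siHOXA3 replicate 2, a setting chosen after seeing the data. The cause was not tested. At an unadjusted p, 36 members were called with no filter and 7 to 45 with a library left out. The median log2 fold change was 0.13 with quality weights, 0.14 with the length and GC offset, 0.03 to 0.39 with a library left out, and -0.0342 without siHOXA3 replicate 2 and with that offset, also chosen after seeing the data.

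The deviations of samples with the same replicate number had correlations of 0.14, 0.10 and -0.06. These values cannot decide whether such samples belong together, since samples with different numbers were not compared. Blocking on the replicate number, the replicate block, 0 members passed the adjusted p, 20 passed the unadjusted p and the median was 0.20, or 20 members and 0.13 with the length and GC offset as well, and no other call at an adjusted p changed.

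The difference in summed share ranged from -0.011 to 0.927 percentage points with a library left out, and that of RPS27L within its pair from -4.54 to 0.847. The list medians ranged from -0.019 to 0.20 for translation genes outside the rule, -0.11 to 0.057 for biogenesis factors, -0.063 to 0.010 for rRNA transcription and -0.079 to 0.25 for pouch endoderm markers. With quality weights the medians of rRNA transcription and neural markers were -0.014 and 0.11.

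Fold changes near 0 changed direction. With a library left out the log2 values ranged from -0.24 to 0.22 for FAU, -0.069 to 0.26 for RPL10, -0.091 to 0.28 for RPL13A, -0.14 to 0.12 for RPL15, -0.33 to 0.14 for RPL17, -0.029 to 0.26 for RPL22, -0.37 to 0.10 for RPL22L1, -0.076 to 0.18 for RPL3, -0.00366 to 0.21 for RPL36A, -0.000944 to 0.38 for RPL39L, -0.13 to 0.14 for RPL5, -0.10 to 0.10 for RPL7L1, -0.088 to 0.18 for RPLP0, -0.18 to 0.33 for RPLP1, -0.26 to 0.17 for RPS13, -0.32 to 0.092 for RPS15, -0.11 to 0.40 for RPS19, -0.051 to 0.31 for RPS2, -0.071 to 0.18 for RPS27L, -0.080 to 0.29 for RPSA and -0.063 to 0.59 for STMN2. With quality weights they were -0.0405 for RPL10, -0.0666 for RPL15, -0.0237 for RPL3, -0.0881 for RPL5, -0.0441 for RPL7L1, -0.0326 for RPLP0, -0.17 for RPLP1, -0.0152 for RPS27L and -0.0283 for RPSA. With the length and GC offset they were -0.0578 for RPL15, -0.0222 for RPL5 and -0.00920 for RPS27L, and with the block added -0.0633, -0.0294 and -0.0137. RPL15 was -0.00764 with library-size scaling and -0.00467 with the replicate block.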
